A study of Mus musculus with 4 samples.

Results

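Voltage-gated sodium, calcium and hyperpolarization-activated channel genes and potassium channel genes were followed in the injured cortex of mice that lacked Ndrg2 by label and of wild-type mice. The set was taken by gene symbol: the pore-forming potassium channel families Kcna, Kcnb, Kcnc, Kcnd, Kcnh, Kcnj, Kcnk, Kcnn, Kcnq and Kcnt, the sodium channel alpha genes, the sodium channel beta genes, the calcium channel alpha-1 genes, and the Hcn genes. Kcnj8 and Kcnj10, which mark mural cells and astrocytes, were kept apart. Of 20832 named genes with a probe on the array, 89 belonged to the set, with 124 probes. Of these 89 genes, 84 were bright enough to be tested, among 24565 features in all. The other 5, among them Hcn4, Kcnj1, Kcnk18 and Kcnn1, were not well above background often enough, and Scn3b and Scn9a had no matched probe.

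The mice were 8 weeks old and of the strain C57BL/6. Every mouse, wild type (wildtype) or knockout (Ndrg2KO), had undergone permanent MCAO, in which the left middle cerebral artery is closed for good by electrocoagulation to give a focal stroke. RNA came from the cortex on the side of the stroke, 24 h later. Each of 4 arrays paired 1 knockout sample in the green dye Cy3 with 1 wild-type sample in the red dye Cy5, and the labels number the pairs 1 to 4. No unoperated mice were among these samples, so both groups share the injury and the values say nothing about its effect. The labels do not say which part of Ndrg2 was removed, whether the loss was restricted to a cell type, whether animals were pooled or whether each sample was a separate animal. The p-values thus cover sample-to-sample variation of an unknown kind, some of which may be technical.

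Voltage-gated sodium channels start the action potential, potassium channels end it and set the resting potential, and calcium channels turn it into transmitter release and gene regulation. Each channel is built from pore-forming alpha subunits, alone or in groups, and accessory subunits that set its gating and its place in the membrane. In cortical neurons these genes decide how readily a cell fires. After an artery is closed, failing ion pumps lead to loss of the potassium gradient, depolarization and calcium entry through such channels.

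All values are log2 ratios of knockout-labelled over wild-type signal, 1 per array, so a negative value is a lower signal in the knockout-labelled sample. The brightest probe stood for a gene, and a gene passed at an adjusted p under 0.05 in limma over all features. The targeted gene Ndrg2 itself had log2 ratios of -0.22, -0.22, -0.18 and -0.11 on arrays 1 to 4, a mean of -0.18 ± 0.05 (SD, n = 4; limma, adjusted p = 0.0248), which is 1.13-fold. With each array only centred on its median it stood at -0.66 (limma, adjusted p = 2.65e-05). With the log ratios of the scanner software it stood at -0.04 (limma, adjusted p = 0.529). The call was lost in 6 of 14 alternative settings, so its probe did not check the labels. The samples are therefore called knockout-labelled, and no direction here can be tied to a measured loss of Ndrg2. Leaving out control spots, the scanner software marked 73.6 to 74.9% of Cy3 signals and 76.7 to 79.0% of Cy5 signals as well above background, and 0 as saturated. The arrays fell into pairs: over all features the correlation of log2 ratios was 0.73 between arrays 1 and 2 and 0.628 between arrays 3 and 4, against 0.408 to 0.475 for the other combinations. Some marker lists also differed between these pairs, with medians on arrays 1 to 4 of -0.22, -0.26, 0.27 and 0.44 for oligodendrocytes, -0.28, -0.46, 0.24 and -0.03 for striatal neurons, and -0.33, -0.64, -0.09 and 0.17 for erythrocytes. Their part in the spread of the channel genes was not tested. No array had its dyes swapped, so a dye effect of a single probe and genotype cannot be told apart. Because these are bulk samples, fewer cells of a type and less RNA per cell cannot be told apart either.

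Of the 84 ion channel genes tested, 10 fell, 6 rose and 68 did not pass. Among the falls, Scn7a was kept only through the wild-type channel, and with the stricter filter on dim probes 9 fell and 6 rose. Those 16 calls were 19.0% of the genes. Over all features 21.3% passed, 8.63% upward and 12.7% downward, so the share among channel genes was near the background. Their median log2 ratio was -0.01, against -0.02 over all features, and 41 of the 84 lay within 0.1 of zero. The medians of the set on arrays 1 to 4 were 0.01, 0.02, -0.01 and -0.06, against -0.02 over all features on each array. The spread between arrays was alike too, with a median SD of 0.10 for channel genes and for all features. The same sign on all 4 arrays was seen for 36 channel genes (42.9%) and for 43.8% of all features. All 16 genes that passed had it, which a test of 4 ratios against 0 favours. Its share among all features that passed was not counted. An unadjusted p under 0.05 was found for 33 channel genes and for 37.3% of all features. The largest changes were a rise of Cacna1h, a T-type calcium channel gene, by 0.59 ± 0.19, and a fall of Kcna4, an A-type potassium channel gene, by 0.54 ± 0.07 on the log2 scale (SD, n = 4). Cacna1h alone passed with a change of at least 1.5-fold, and Kcna4 lay just outside at 1.46-fold. Such calls made up 0.505% of all features.

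**Figure D1:**
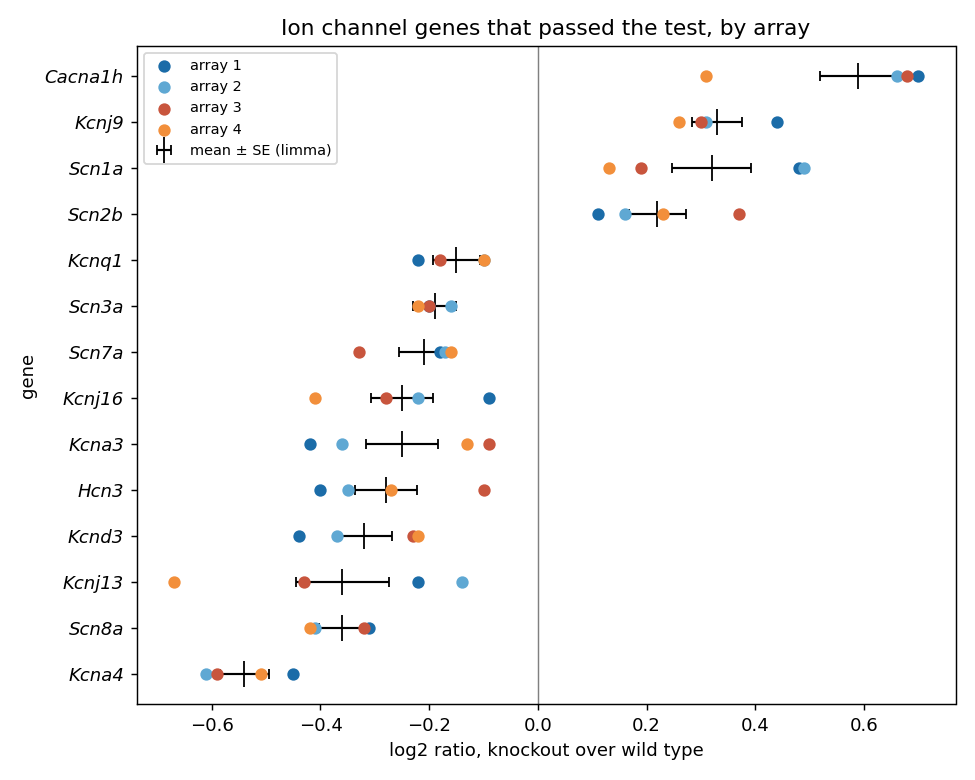
Log2 ratio, knockout-labelled to wild-type signal (x axis), on each array (coloured points) for 14 ion channel genes that passed, with the limma mean ± SE in black. On every array the 4 higher genes drawn lie above 0 and the 10 lower genes below it, from Kcna4 at a mean of -0.54 to Cacna1h at 0.59.

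The scaling of the arrays decided many of these calls. With the log ratios of the scanner software, 3 channel genes passed as higher and 3 as lower, against 6.86% and 7.13% of all features, and 6 of the 16 calls above were kept, those of Kcna4, Scn8a, Kcnd3, Kcnj9 and Cacna1h included. With each array only centred on its median, 27 of the 84 tested channel genes were higher and 26 lower. Among the channel genes that passed, 50.9% were then higher, against 37.5% after loess and 50% with the scanner ratios. Median centring called 33.5% of all features tested higher and 34.6% lower, which are shares of another base. It turned the sign of 3 genes that had passed, among them Scn2b to -0.15 and Scn7a to 0.50. Kcna4, Kcnj9 and Cacna1h kept direction and call in all 14 alternatives run, which are not all separate checks. The filter alternatives used the same probes and ratios for these genes, and the series matrix values nearly repeat the scanner ratios. For Kcna4 and Kcnj9, each with a single probe, the mean of kept probes also repeats the main value. Over the 14 alternatives the log2 ratio of Kcna4 ranged from -0.70 to -0.52, that of Kcnj9 from 0.16 to 0.35 and that of Cacna1h from 0.25 to 0.68. The adjusted p (limma) ranged from 2.59e-05 to 0.0172 for Kcna4, from 0.00523 to 0.0313 for Kcnj9 and from 8.46e-04 to 0.0261 for Cacna1h.

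**Figure D2:**
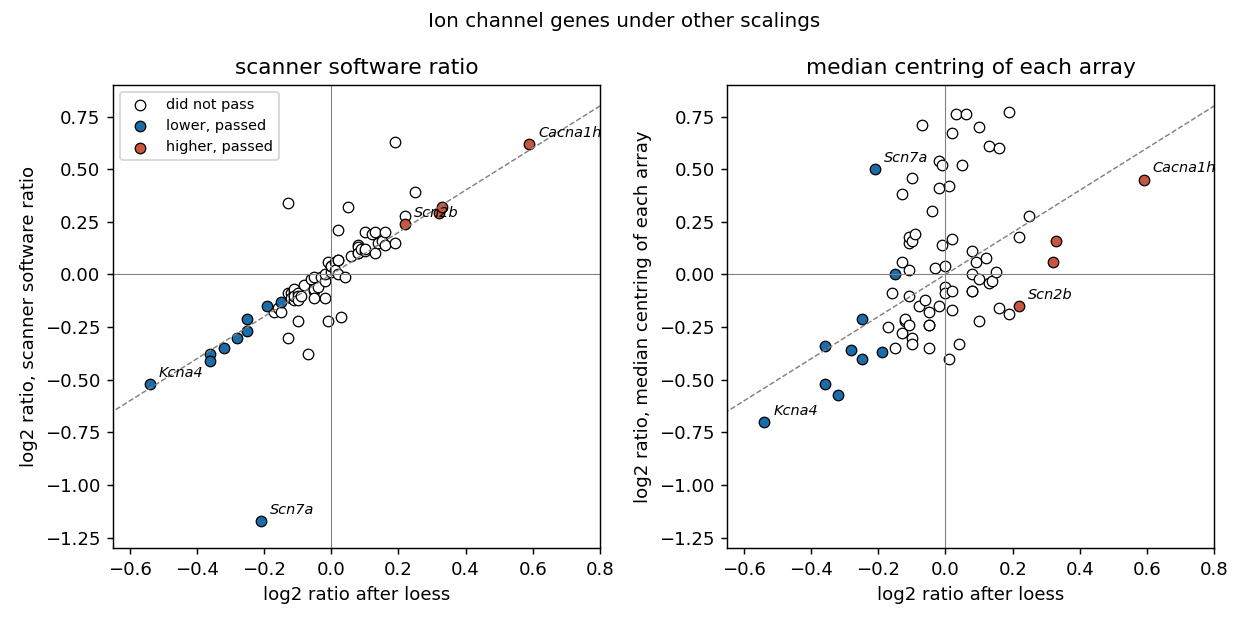
Mean log2 ratio of 78 tested ion channel genes after loess (x axis) against the scanner software's ratio (left) and median centring (right), with genes that passed after loess filled. Kcna4 and Cacna1h stay far from 0 under all 3 scalings, while Scn7a moves from -0.21 to -1.17 on the left and to 0.50 on the right.

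Sodium channel alpha genes, which encode the pore that carries the upstroke of the action potential, moved in both directions. Scn8a and Scn3a fell and Scn1a rose. Scn7a was also called lower, but was kept only through the wild-type channel, where it was brighter, and was not tested under the stricter filter. Scn8a, the main channel of mature axon initial segments and nodes of Ranvier, had log2 ratios of -0.31, -0.41, -0.32 and -0.42 on arrays 1 to 4. The normalized log2 intensities behind them were 11.49, 11.62, 11.54 and 11.59 in the wild-type channel and 11.19, 11.21, 11.22 and 11.17 in the knockout channel, so the groups did not overlap. Scn8a, Kcna4, Kcnj9 and Cacna1h, whose channels are given here, had passed on these same values, so a lack of overlap is no further support. How many of all features lack overlap was not counted. Scn8a fell by 0.36 ± 0.06, or 1.29-fold (SD, n = 4; limma, adjusted p = 0.00360). Both other kept probes of Scn8a, however, stood at 0.12 and 0.11, and with the mean of all its probes the gene was no longer called (adjusted p = 0.501; range over the alternatives 5.32e-05 to 0.501).

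Scn1a, the sodium channel on which inhibitory interneurons depend most, went the other way. Its log2 ratios were 0.48, 0.49, 0.19 and 0.13, all above zero and higher on arrays 1 and 2 than on arrays 3 and 4. Its mean rose by 0.32 ± 0.19 (limma, adjusted p = 0.0227), but a dimmer second probe stood at 0.03. The call was lost in 8 of 14 alternatives, among them without replicate 1, without replicate 2 and with median centring, where the log2 ratio was 0.06 (range of adjusted p 0.0198 to 0.508).

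Scn3a, the sodium channel of the embryonic brain, had log2 ratios of -0.20, -0.16, -0.20 and -0.22, the closest set of values of any channel gene with an SD of 0.02. The mean fell by 0.19 (limma, adjusted p = 0.0171), while its other probes stood at -0.07 and 0.05 and the call was lost in 7 of 14 alternatives, among them without each of the 4 replicates. Scn7a, which encodes a sodium-sensing channel of glia, had log2 ratios of -0.18, -0.17, -0.33 and -0.16 (mean -0.21, adjusted p = 0.0205), but was well above background in the knockout channel on 1 of 4 arrays only. Its direction flipped with median centring, as given above, and its call was lost in 7 of 13 alternatives, among them without replicates 1, 2 or 3.

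Scn2a, the companion of Scn8a in excitatory axons, did not pass, at -0.05 ± 0.05 with log2 ratios of -0.12, -0.03, -0.04 and -0.02. Its other probes were at 0.10 and 0.08. Scn4a, the channel of skeletal muscle, stood at -0.01 ± 0.07. The sensory neuron genes Scn10a and Scn11a stood at 0.19 ± 0.32 and -0.11 ± 0.07. The former differed more between arrays, with 0.40, 0.47, -0.24 and 0.14.

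Beta genes of the sodium channel, whose products adhere to neighbouring cells and set gating of the alpha pore, are represented here by Scn2b and Scn4b. Scn2b had 0.11, 0.16, 0.37 and 0.23 and rose by 0.22 ± 0.11 (adjusted p = 0.0276), a direction that flipped with median centring; the call was lost in 8 of 14 alternatives, among them without replicates 2, 3 or 4. Scn4b did not pass at -0.05 ± 0.14.

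Of 10 calcium channel alpha-1 genes, 1 rose and 9 did not pass. Cacna1h, one of the low-voltage-activated T-type channels that drive burst firing, had log2 ratios of 0.70, 0.66, 0.68 and 0.31. The normalized log2 intensities were 10.62, 10.65, 10.66 and 10.68 in the wild-type channel and 11.32, 11.30, 11.35 and 10.99 in the knockout channel. The wild-type values were close together, the groups did not overlap, and array 4 stood apart by its lower knockout value. The mean rise had a limma adjusted p of 0.00386, and its log2 ratio ranked 68 from the top of the 24565 features. The probe matched the transcript NM_021415. A second, dimmer probe matched NM_001163691 and stood at -0.08, with 0.06, -0.15, -0.13 and -0.12 on the 4 arrays, and with the mean of both probes the rise was 0.25.

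The other T-type genes did not pass. Cacna1g had 0.07, 0.16, 0.36 and -0.24 (mean 0.08 ± 0.25), its second probe stood at -0.11, and Cacna1i was at -0.10 ± 0.17. Among the high-voltage-activated channels, Cacna1a, the P/Q-type channel of presynaptic terminals, stood at 0.13 ± 0.21 with 0.44 on array 1 and 0.02, -0.01 and 0.06 on the others. Its second probe was at 0.21. The N-type gene Cacna1b stood at 0.05 ± 0.09, the L-type genes Cacna1c and Cacna1d at 0.13 ± 0.11 and 0.09 ± 0.07, and the R-type gene Cacna1e at -0.11 ± 0.13. Cacna1f of the retina stood at -0.07 ± 0.13 and was well above background in 1 knockout channel only, and Cacna1s of skeletal muscle stood at -0.03 ± 0.09.

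Cacna1d lies on chromosome 14, which also carries Ndrg2, as do Kcnk5 and Kcnk16 among the channel genes. None of the 3 passed in limma, Kcnk5 being at -0.02 ± 0.22 and Kcnk16 at 0.16 ± 0.11 (unadjusted p = 0.0198, the one of the 3 under 0.05). With median centring Kcnk5 stood at 0.54, Kcnk16 at 0.60 and Cacna1d at 0.06. The probes of Kcnk5 and Kcnk16 were dim, at mean log2 intensities of 6.81 and 7.07. Dim channel genes of other chromosomes stood as high with this scaling, among them Kcnn4 of chromosome 7 at 0.76 and Cacna1c of chromosome 6 at 0.61.

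The hyperpolarization-activated Hcn channels carry a depolarizing current at rest and damp dendritic signals. Hcn3 had log2 ratios of -0.40, -0.35, -0.10 and -0.27 and fell by 0.28 ± 0.13 (limma, adjusted p = 0.0176). The call was lost in 5 of 14 alternatives, among them without replicate 1 and without replicate 2. Hcn2 did not pass at 0.04 ± 0.08, with 0.16, 0.01, -0.01 and -0.01.

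**Figure D3:**
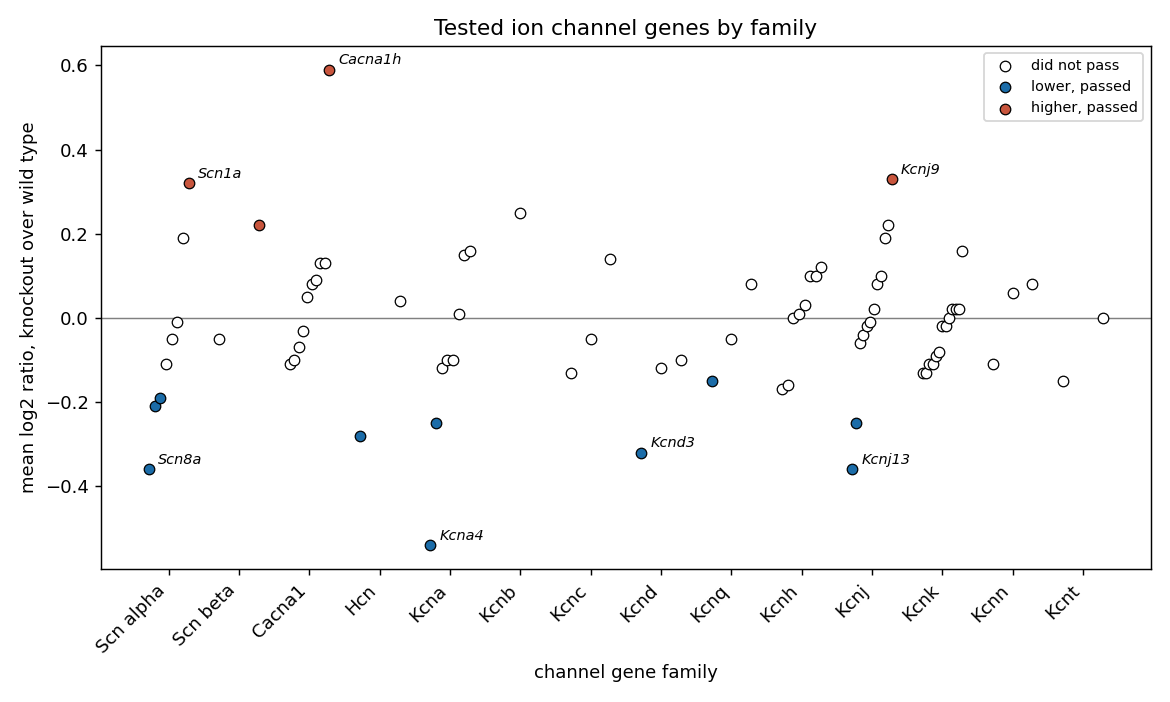
Mean log2 ratio (y axis, positive where the knockout-labelled signal is higher) of 78 tested ion channel genes, by family (x axis), with genes that passed as higher in red and as lower in blue. Genes that passed lie scattered over 8 of the 14 families, and Kcnk and Kcnh, with 13 and 8 tested genes, hold open points only.

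A-type potassium channels open and inactivate quickly below the firing threshold and delay the next action potential. The lowest channel gene, Kcna4, encodes one of them. Its log2 ratios were -0.45, -0.61, -0.59 and -0.51, from normalized log2 intensities of 11.81, 11.95, 11.77 and 11.84 in the wild-type channel and 11.36, 11.34, 11.18 and 11.33 in the knockout channel. Every knockout value lay below every wild-type value. The fall had a limma adjusted p of 0.00163, and its log2 ratio ranked 109 from the bottom of the 24565 features. The gene had a single probe, so no second probe could be set beside it.

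Kcnd3, which encodes an A-type channel of cell bodies and dendrites, had log2 ratios of -0.44, -0.37, -0.23 and -0.22 and fell by 0.32 ± 0.11 (limma, adjusted p = 0.00962). This probe matched NM_001039347. A second, dimmer probe matched NM_019931 and stood at 0.08, and with the mean of both the log2 ratio was -0.12 and did not pass (adjusted p = 0.0751; range over the alternatives 7.57e-05 to 0.0751). The relatives Kcnd2 and Kcnd1 did not pass, at -0.10 ± 0.07 and -0.12 ± 0.03, both below zero on all 4 arrays.

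Among the other Kcna genes, Kcna3, which encodes a channel known from T lymphocytes and microglia, had -0.42, -0.36, -0.09 and -0.13 and fell by 0.25 ± 0.17 (limma, adjusted p = 0.0360). The call was lost in 6 of 14 alternatives, among them without replicate 1 and without replicate 2. Beside it, 4 of 10 microglia and macrophage markers fell and 6 did not pass, while over all features 12.7% fell. The marker medians were -0.17, -0.11, -0.01 and -0.19 on arrays 1 to 4. Of the 4 that fell, Aif1 lost its call in 6 of 14 alternatives and Itgam in 3, while Ctss and Cx3cr1 kept theirs in all 14. The summed normalized intensity of the 10 markers was 107966 to 117763 in the knockout channels and 123600 to 132615 in the wild-type channels, and all 10 were well above background. Their part in the value of Kcna3 was not tested. Kcna1 and Kcna2, which form low-threshold channels of axons, did not pass at 0.16 ± 0.15 and 0.15 ± 0.09, Kcna2 being above zero on all 4 arrays. Kcna6 stood at 0.01 ± 0.06, Kcna5 at -0.10 ± 0.10, Kcna7 at -0.12 ± 0.07 and Kcna10 at -0.10 ± 0.18.

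The Kcnb and Kcnc channels, most of them delayed rectifiers, repolarize cell bodies and fast-spiking neurons. Kcnb2, Kcnc1, Kcnc2 and Kcnc4 did not pass. Kcnb2 stood at 0.25 ± 0.23, with 0.49, 0.38, 0.12 and 0.01. Kcnc1, typical of parvalbumin interneurons, stood at 0.14 ± 0.09 with its other probes at -0.02 and 0.02. Its partner Kcnc2 stood at -0.13 ± 0.08 and Kcnc4, the gene of an A-type channel, at -0.05 ± 0.18. The marker Pvalb itself stood at -0.02 ± 0.12.

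Kcnq3 and Kcnq5 contribute to the M-current, which limits repeated firing. Neither passed, at 0.08 ± 0.15 and -0.05 ± 0.05. Kcnq1, known from heart and epithelia, had -0.22, -0.10, -0.18 and -0.10 and fell by 0.15 ± 0.06 (adjusted p = 0.0466), a call lost in 11 of 14 alternatives, among them each replicate left out. With median centring its log2 ratio was 0.00 to 2 decimals (adjusted p = 0.977).

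The 8 Kcnh genes, of the EAG, ERG and ELK channels, and the 13 two-pore-domain Kcnk genes, whose leak current sets the resting potential, held no gene that passed in limma. Unadjusted p-values under 0.05 were seen for 2 of the Kcnh and 3 of the Kcnk genes. Kcnh4 was lowest in the former at -0.17 ± 0.15, with 0.03, -0.18, -0.21 and -0.32. Kcnh2, the ERG channel gene, had 0.35, 0.43, -0.06 and -0.25, and Kcnh3 had 0.40, 0.26, -0.13 and -0.13. In both, arrays 1 and 2 lay above zero and arrays 3 and 4 below, and the mean lay within the spread. Kcnk2, a channel opened by stretch and fatty acids and studied in ischaemia, stood at -0.11 ± 0.09, and Kcnk1 at 0.02 ± 0.05. Kcnk13, a channel gene of microglia, had -0.24, -0.42, 0.17 and 0.16. Kcnk4 stood at -0.11 ± 0.04 on its brightest probe and at 0.18 on another.

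Inward rectifiers of the Kcnj family hold the membrane near the potassium potential, and in neurons some are opened by G proteins. Of 12 tested, 1 rose, 2 fell and 9 did not pass. Kcnj9, a G-protein-gated subunit, had log2 ratios of 0.44, 0.31, 0.30 and 0.26. Its normalized log2 intensities were 11.45, 11.48, 11.34 and 11.32 in the wild-type channel and 11.88, 11.78, 11.64 and 11.59 in the knockout channel, so the groups did not overlap. It rose by 0.33 ± 0.08 (limma, adjusted p = 0.00621), or 1.25-fold, and had a single probe. Its partner Kcnj3 had 0.37, 0.32, 0.19 and -0.01 and did not pass (mean 0.22 ± 0.17, adjusted p = 0.0548, second probe at 0.01). Kcnj6, the third neuronal gene of the kind, stood at 0.02 ± 0.07, and Kcnj5 at 0.10 ± 0.23.

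**Figure D4:**
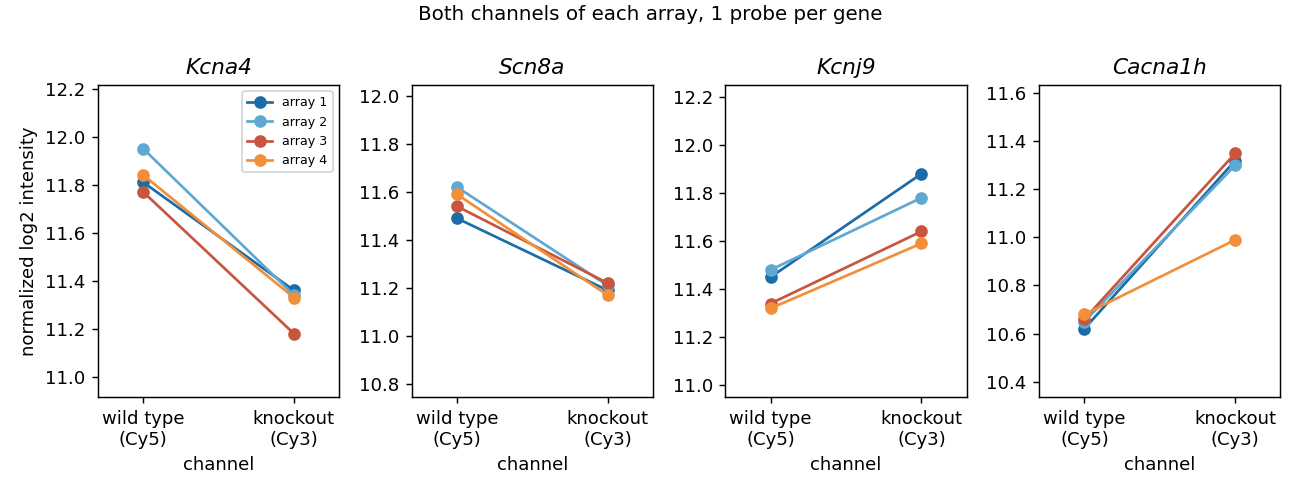
Normalized log2 intensity (y axis, each panel spanning the same range) in the wild-type (Cy5) and knockout (Cy3) channel of each array, joined by a line per array, for Kcna4, Scn8a, Kcnj9 and Cacna1h. For each gene the 4 knockout values lie on 1 side of the 4 wild-type values, with the knockout value of Cacna1h on array 4 at 10.99 against 11.30 to 11.35 on the others. All 4 genes had passed on the same values, and the share of all features without overlap was not counted.

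Kcnj13 encodes a channel of choroid plexus and other epithelia. Its log2 ratios were -0.22, -0.14, -0.43 and -0.67, and it fell by 0.36 ± 0.24 (limma, adjusted p = 0.0260), with a second probe at -0.07. The call was lost in 8 of 14 alternatives, among them without replicates 1, 3 or 4. Beside it, 1 of 4 choroid plexus markers fell, Otx2 by 0.37, and 3 did not pass, while over all features 12.7% fell. The call of Otx2 was lost in 7 of 14 alternatives, among them median centring, where it stood at -0.03. On arrays 1 to 4 Ttr had -0.74, -1.46, -0.09 and -0.27, and Otx2 had -0.42, -0.71, -0.13 and -0.23. Folr1 had -0.10, -0.03, 0.05 and 0.06, and Kl had 0.05, 0.10, 0.06 and -0.03. The 4 markers were well above background on all arrays, with a summed normalized intensity of 853 to 1252 in the knockout channels and 878 to 1802 in the wild-type channels. Their part in the value of Kcnj13 was not tested.

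Kcnj16 forms astrocyte channels together with Kcnj10. It had -0.09, -0.22, -0.28 and -0.41 and fell by 0.25 ± 0.13 (limma, adjusted p = 0.0247), a call lost in 6 of 14 alternatives, among them without replicates 2, 3 or 4. Kcnj10 had -0.08, -0.05, 0.03 and -0.54 and did not pass. Beside them, 4 of 10 astrocyte markers fell and 6 did not pass, while over all features 12.7% fell. The marker medians on arrays 1 to 4 were -0.21, -0.19, -0.08 and -0.33. Of the 4 that fell, Atp1b2 lost its call in 6 of 14 alternatives and Aldoc in 2, while Aqp4 and Slc1a2 kept theirs in all 14. The summed normalized intensity of the 10 markers was 196381 to 230527 in the knockout channels and 254939 to 267661 in the wild-type channels. All 10 were well above background, and their part in the value of Kcnj16 was not tested. The classical inward rectifiers Kcnj2, Kcnj4, Kcnj12 and Kcnj14 did not pass. Kcnj4 was highest of them at 0.19 ± 0.17, with 0.37, 0.30, 0.03 and 0.05, and Kcnj2 stood at -0.04 ± 0.09. Kcnj11, the pore of the ATP-sensitive channel that opens when energy fails, stood at 0.08 ± 0.08, and Kcnj15 at -0.01 ± 0.11.

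None of the calcium-activated Kcnn genes and sodium-activated Kcnt genes passed in limma, against 1 of these 5 with an unadjusted p under 0.05. That gene, Kcnt1, was at -0.15 ± 0.10, with -0.13, -0.23, -0.01 and -0.22, and Kcnt2 was within 0.01 of zero. Kcnn2, the small-conductance channel of neurons, stood at 0.08 ± 0.13 and Kcnn3 at -0.11 ± 0.18. Kcnn4, the channel of activated microglia and blood cells, stood at 0.06 ± 0.17.

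Upstream sequences are shown for the lowest gene, Kcna4, for Kcnj9, the other gene with a single probe that kept its call in all 14 alternatives, and for Scn8a and Scn1a, the sodium channel genes that moved in opposite directions. Each is the stretch of 250 bases before the first listed start site of the gene in RefSeq (GRCm38.p6), and runs 5′ to 3′ on the strand of the gene. Scn8a has 2 listed start sites and the others 1 each. Capitals mark any of 5 short motifs, each searched on both strands. The GC box is GGGCGG. The sequence CCAAT is common in promoters, and the box bound by the general transcription machinery is written TATAAA. Hypoxia response elements share the core ACGTG, and the cAMP response element is TGACGTCA. No entry was matched for Cacna1h.
The stretch of Kcna4 is chr2:107290339-107290588 on the plus strand, with 65.2% G and C.
Kcna4: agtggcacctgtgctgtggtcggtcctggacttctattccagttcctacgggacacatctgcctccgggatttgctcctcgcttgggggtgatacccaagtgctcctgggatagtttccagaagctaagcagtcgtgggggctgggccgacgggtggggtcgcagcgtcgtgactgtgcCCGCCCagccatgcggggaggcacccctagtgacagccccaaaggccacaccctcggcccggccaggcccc
The stretch of Kcnj9 is chr1:172329323-172329572 on the minus strand, with 52.0% G and C.
Kcnj9: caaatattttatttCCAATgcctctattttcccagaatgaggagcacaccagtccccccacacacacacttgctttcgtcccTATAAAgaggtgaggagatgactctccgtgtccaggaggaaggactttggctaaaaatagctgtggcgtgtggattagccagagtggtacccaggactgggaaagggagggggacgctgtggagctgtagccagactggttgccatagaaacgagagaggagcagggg
The stretch of Scn8a is chr15:100870395-100870644 on the plus strand, with 68.0% G and C.
Scn8a: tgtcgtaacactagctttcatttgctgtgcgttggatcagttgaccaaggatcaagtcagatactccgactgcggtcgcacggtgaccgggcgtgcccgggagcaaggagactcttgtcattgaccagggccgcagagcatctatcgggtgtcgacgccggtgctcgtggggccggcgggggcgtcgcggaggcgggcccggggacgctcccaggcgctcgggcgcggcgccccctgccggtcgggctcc
The stretch of Scn1a is chr2:66440838-66441087 on the minus strand, with 46.8% G and C.
Scn1a: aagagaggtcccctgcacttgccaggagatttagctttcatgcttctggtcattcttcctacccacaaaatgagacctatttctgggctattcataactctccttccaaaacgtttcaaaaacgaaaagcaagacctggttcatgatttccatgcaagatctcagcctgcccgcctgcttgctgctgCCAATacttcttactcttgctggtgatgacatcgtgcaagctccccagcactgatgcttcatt

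GGGCGG or its complement occurred in the stretch of Kcna4, CCAAT in those of Kcnj9 and Scn1a, and TATAAA in that of Kcnj9, each 1 time. None of the 5 motifs was found in the window of Scn8a, and ACGTG and TGACGTCA were in none of the 4. The lack of ACGTG does not exclude another form of the hypoxia core, which the search did not cover. Of all 32851 promoters in the table, 32.7% held GGGCGG, 33.8% CCAAT, 12.4% TATAAA, 16.6% ACGTG and 1.55% TGACGTCA in the same length. Of 60 tested channel genes with an entry, each by its first listed start, 46.7% held GGGCGG, 26.7% CCAAT, 5.0% TATAAA and 11.7% ACGTG, and 0 held TGACGTCA. The 2 sets are unlike, since the 32851 promoters can hold several starts of a gene. A match describes letters and shows no binding.

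Different probes of a channel gene often gave different values. Of the 84 genes, 28 had more than 1 kept probe, and in 16 of them every other probe had the sign of the brightest. Of the 16 genes that passed, 7 had other kept probes, 9 in all, of which 4 had the same sign. All others had the same sign for 3 of the 7, Kcnj13 and Scn1a among them, while Cacna1h, Kcnd3, Scn3a and Scn8a had at least 1 probe on the other side of zero. The remaining 9, Kcna4 and Kcnj9 among them, had 1 kept probe. Probes may measure different transcripts of a gene, which was not tested because no probe sequence was used here. With the mean of the kept probes in place of the brightest, 11 of the 16 calls held.

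**Figure D5:**
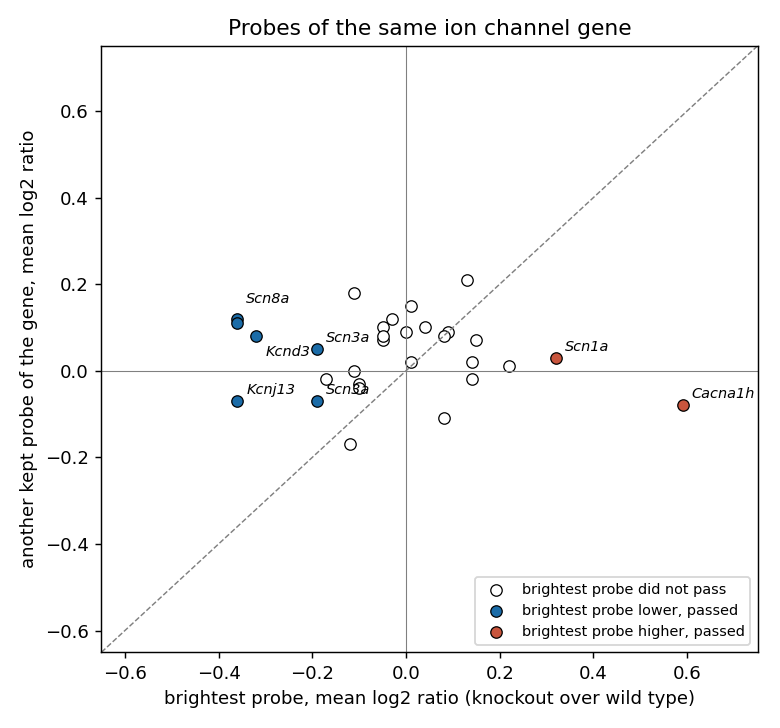
Mean log2 ratio of the brightest probe (x axis) against each other kept probe of the same gene (y axis) for 26 tested ion channel genes with more than 1 kept probe. Cacna1h, at 0.59 and -0.08, and Scn8a, at -0.36 against 0.12 and 0.11, lie far from the dashed line of equal values.

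Accompanying genes, accessory or related to these channels, were taken as a list of 72, of which 67 were tested: 12 rose, 3 fell and 52 did not pass, with a median of 0.03. The list also held some pore-forming channel genes, among them Kcnma1, the leak channel gene Nalcn, and Kcnj8 and Kcnj10, none of which passed. Over all features 8.63% rose and 12.7% fell. With the scanner ratios 7 were higher and 0 lower (limma; 7 lower at an unadjusted p under 0.05), and with median centring 19 were higher and 24 lower. The largest rise was that of Cacng2, which encodes stargazin, a calcium channel gamma protein that also anchors AMPA receptors. It had 0.57, 0.58, 0.45 and 0.35 and rose by 0.49 ± 0.11 (limma, adjusted p = 0.00253). Kcnip2, a calcium sensor bound to the Kcnd channels, had 0.50, 0.24, 0.27 and 0.33 and rose by 0.33 ± 0.12 (adjusted p = 0.00900), whereas Kcnd3 itself was lower on its brightest probe. Both kept their calls in all 14 alternatives.

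Of 9 modifier genes, whose products form channels only together with Kcnb subunits, 3 rose and 1 fell. Kcns2 had 0.21, 0.34, 0.37 and 0.27 and rose by 0.30 ± 0.07 (limma, adjusted p = 0.00749), Kcns1 rose by 0.30 ± 0.17 and Kcns3 by 0.20 ± 0.06, and Kcnv1 fell by 0.20 ± 0.13. Of 16 calcium channel accessory genes 4 rose: beside Cacng2 these were Cacng8, by 0.26 ± 0.13, and the beta genes Cacnb3 and Cacnb4, by 0.17 ± 0.06 and 0.14 ± 0.02, the last pair with a sign that flipped with median centring, to -0.01 and -0.06. Of 12 beta, KChIP, DPP and KCNE genes 3 rose, Kcnab2 by 0.19 ± 0.03 and Kcnab3 by 0.34 ± 0.23 beside Kcnip2. Among sodium channel partners, Nrcam and Fgf12 rose by 0.21 each and flipped with median centring to -0.18 and -0.06, and the scaffold gene Ank2 fell by 0.14 ± 0.03. A second probe of Fgf12 stood at -0.01. Abcc8, the sulfonylurea receptor gene that joins Kcnj11, fell by 0.21 ± 0.12, with a second probe at -0.18. Of 14 alternatives, Cacnb4 lost its call in 10, Cacnb3 in 9, Kcnab3 and Fgf12 in 8 each, Kcns3 in 6, Kcns1 in 4, Kcnab2 and Cacng8 in 3 each, Nrcam in 2 and Kcns2 in 1, the fit with no replicate block (limma, adjusted p = 0.0990; range 0.00264 to 0.0990). Leaving out any replicate ended the calls of Cacnb3 and Cacnb4, leaving out replicate 1, 2 or 3 those of Kcnab2, Kcnab3, Kcns3, Cacng8 and Fgf12, replicate 1 or 2 that of Kcns1, and replicate 2 that of Nrcam. The falls of Abcc8, Ank2 and Kcnv1 (limma, adjusted p = 0.0334, 0.0460 and 0.0475) were lost in 7, 9 and 9 of 14 alternatives, among them without replicates 2, 3 or 4 for Abcc8 and without each replicate in turn for Ank2 and Kcnv1.

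Markers of neurons, in which most of these genes are expressed, were high in both channels and moved in both directions. Of 19 pan-neuronal markers 3 rose, 3 fell and 13 did not pass, with a median of 0.03 and medians of 0.05, 0.02, -0.01 and -0.04 on arrays 1 to 4. Their summed normalized intensity was 570230 to 603749 in the knockout channels and 586818 to 619994 in the wild-type channels, ranges that overlapped, and all 19 were well above background. Nefm, a neurofilament gene on chromosome 14, rose by 0.26 ± 0.04, and Elavl4, an RNA-binding protein gene, fell by 0.30 ± 0.11. Of 7 interneuron markers 2 fell, Gad2 by 0.24 ± 0.17 and Lhx6 by 0.18 ± 0.11, and 5 did not pass, beside the rise of Scn1a. The call of Gad2 was lost in 7 and that of Lhx6 in 9 of 14 alternatives, among them the scanner ratios for both. Over all features 8.63% rose and 12.7% fell. The summed intensity of the 7 interneuron markers was 100336 to 116784 in the knockout channels and 112767 to 123659 in the wild-type channels. Muscle markers, set beside Scn4a and Cacna1s, held 2 that rose of 11, Myh7 by 1.56 and Myh6 by 0.36. Both lie on chromosome 14, which also carries Ndrg2, and the other 9 did not pass. The summed intensity of the 11 was 7950 to 9176 in the knockout channels and 5124 to 5466 in the wild-type channels, and without the genes on chromosome 14 it was 3571 to 3972 and 3543 to 3816, ranges that overlapped. Ttn was well above background on 0 knockout channels. Their part in the values of the channel genes was not tested.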

How the data were processed

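Cortical RNA (200 ng per sample, per the labels' protocols) was compared on 4 2-colour Agilent arrays, knockout in Cy3 and wild type in Cy5. The spot and background intensities were deposited by the authors as made by Feature Extraction 11.0.1.1, per the file headers (10.7.3.1 per the submitters' processing notes). The deposited log10 ratio is Cy5 over Cy3 of processed signals, per the file headers. Values on a log2 scale are in the deposited series matrix and for all 39030 probes with a single spot equalled log2 of processed Cy5 over Cy3 within 0.001, the direction opposite to the one used here; their medians were -0.053, -0.056, -0.038 and -0.031. The deposited flags are other values, per the file headers.

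Median spot and background signals were corrected with normexp (offset 50) and normalized by loess within arrays, control spots at weight 0 (limma 3.58.1, R 4.3.3). Control spots and 139 to 186 outlier spots per array were left out. A probe was kept when well above background on at least 3 of 4 arrays in either channel, 30259 of 39429. RefSeq accessions gave 27427 probes (69.6%) a symbol (GRCm38.p6, names only; the array design is on mm9). Channel intensities are after loess and Aquantile scaling. Ratios were tested against 0 with lmFit and eBayes and adjusted by Benjamini-Hochberg over 24565 features. Only the test against 0 and its adjustment, and not the steps before them, were tried on simulated ratios. Named genes were those that passed, the smallest p per family, those on chromosome 14 and a fixed list; the others are described for completeness of their family. The members and lists were chosen with earlier results of these data known. The protein stretches planned are not printed. Some channel genes are counted in the totals and are not reported singly here, in text or figures.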

Additional observations from a re-analysis of the deposited data

Results flagged for a closer look

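Of 39 named channel genes, 5 had 1 array so far from the nearest other that the gap, as a share of the range of the 4 log2 ratios, passed Dixon's critical value for 4 samples, and chance alone flags about 1 in 20 groups, or 1.95 here. Cacna1h had 0.31 on array 4, the other arrays averaging 0.68 (ratio 0.889). Cacna1a had 0.44 on array 1 against 0.03 (0.847), Kcnc1 had 0.27 on array 1 against 0.09 (0.894), and Hcn2 had 0.16 on array 1 against a mean within 0.01 of zero (0.914). Scn7a had -0.33 on array 3 against -0.17 (0.868).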

How the results depend on the processing

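Over the alternatives run, the median log2 ratio of the tested channel genes stayed between -0.028 and 0.001, less than the spread between the 4 arrays away from its main value. Counts of calls moved more. Channel genes that were lower numbered 10 in the main setting, 5 with plain background subtraction, 26 with median centring, 3 with the scanner ratios and with the series matrix values, and 4 to 6 with each replicate left out; the higher ones numbered 6, and 3, 27, 3, 3 and 3 to 6 in the same order. Without replicate 2 they were 4 and 3. With no replicate block, the channels being 8 separate samples, 6 were lower and 3 higher. Accompanying genes that were lower numbered 3, against 0 with plain subtraction, the scanner ratios, the series matrix values and no replicate block (limma; 6, 7, 7 and 5 at an unadjusted p under 0.05), 24 with median centring, 1 with no filter and 0 to 1 with each replicate left out (0 without replicate 2 or 3, with 7 and 6 at an unadjusted p under 0.05); the higher ones numbered 12, against 7, 7, 7 and 6, then 19, and 3 to 11 with each replicate left out. Of the 16 channel genes that passed, 16 kept their calls with scaling between arrays, 15 with no background correction, 14 with no filter, 15 of 15 tested with the stricter filter and 9 with no replicate block. With median centring some of the 39 named channel genes stood on the other side of zero. Those called in the main setting were Scn2b at -0.15 and Scn7a at 0.50. Those called with median centring only were Hcn2 at -0.33, Kcnj2 at 0.30, Kcnj4 at -0.19, Kcnk1 at -0.17 and Kcnk5 at 0.54. Further named genes crossed zero without a call in either setting, among them Kcna1, from 0.16 to -0.16, and Cacna1a, from 0.13 to -0.04. Genes outside the named ones crossed zero as well, among them Cacna1e, from -0.11 to 0.18. Why the scalings differ was not tested. The 4 arrays limit the precision, and dim probes such as that of Scn7a rest on few knockout channels above background.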
